A study of Homo sapiens with 83 samples.

Results

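The 31 genes described here encode the enzymes and regulators of cholesterol and fatty acid synthesis. They were chosen by symbol from a list with no threshold on any value, and each matched exactly 1 of the 60237 gene entries of the expression table. By role, 7 belong to the mevalonate arm, 11 to the squalene and sterol arm, 4 to the control of the SREBP transcription factors, 2 to sterol transport and 7 to fatty acid synthesis. The questions were how high each gene stood in each cell line, whether its level differed when N-MYC was active, and whether it moved over the hours of culture.

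Polyadenylated RNA of SHEP and SKNAS cells, both human neuroblastoma lines, was sequenced in 83 libraries. Both lines were N-MYC-ER overexpressing: they carried a fusion of N-MYC to a hormone-binding part that responds to 4-hydroxytamoxifen (4OHT). MYC-ON cells were given 4OHT and MYC-OFF cells its ethanol vehicle 24 h before every culture received dexamethasone, from which circadian time (CT) counts in hours. SHEP had 28 libraries per condition, from 2 replicate experiments (series 1 and 2) sampled every 4 h from CT24 to CT76, while SKNAS had 1 series per condition, with 14 MYC-OFF libraries to CT76 and 13 MYC-ON libraries to CT72. Within a series the time points share 1 experiment, so p-values measure the spread between time points, and SKNAS has no repeat. MYC-ON cells differ from MYC-OFF cells in 4OHT as well as in N-MYC activity, so an effect of the compound cannot be told apart here. Hours after dexamethasone and hours in culture likewise run together and cannot be told apart. MYCN transcripts averaged 555 and 377 TPM in SHEP and 547 and 365 TPM in SKNAS in MYC-OFF and MYC-ON, a level that does not check the labels because 4OHT acts on the fusion protein.

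As background, cells build cholesterol from acetyl-CoA through mevalonate, the isoprenoid farnesyl pyrophosphate, squalene and lanosterol. The membrane-bound SREBP factors, encoded by SREBF1 and SREBF2, switch on these enzymes when sterols are scarce: SCAP carries the precursors to the Golgi for cleavage, and INSIG1 holds SCAP back in the endoplasmic reticulum when sterols are plentiful. Fatty acid synthesis starts from the same acetyl-CoA, which ACLY makes from citrate, and SREBP-1c, a product of SREBF1, is known as a driver of its genes. Sterol-activated LXR receptors act on the other side and turn on the cholesterol exporter ABCA1.

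SREBP factors are known to act at sterol response elements together with NF-Y, a factor that binds CCAAT boxes. The 250 bases before the start of each gene were therefore searched on both strands, in RefSeq sequence of GRCh38.p14, for TCACNCCAC (a sterol response element), CACGTG (an E-box, the letters MYC proteins bind) and CCAAT (read as ATTGG on the other strand). Of the 31 genes 27 had an entry, and FDFT1, SQLE, ACAT2 and FASN were not matched. CCAAT occurred in 17 of the 27 against 33.0% of all 27305 promoters, CACGTG in 4 (ABCA1, INSIG1, SC5D and SCAP) against 6.49%, and TCACNCCAC in 1 (SREBF2) against 0.875%. Stretches of 6 promoters are shown because these genes recur in the results below and between them hold both CCAAT orientations and the sterol element. All are written 5′ to 3′ on the strand of the gene, with each match in capitals, and in NSDHL a CCAAT and an ATTGG share letters.
HMGCS1: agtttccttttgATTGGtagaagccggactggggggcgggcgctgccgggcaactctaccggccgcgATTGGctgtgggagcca
MVD: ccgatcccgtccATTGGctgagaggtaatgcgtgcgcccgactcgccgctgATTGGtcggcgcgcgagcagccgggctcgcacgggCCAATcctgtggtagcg
MSMO1: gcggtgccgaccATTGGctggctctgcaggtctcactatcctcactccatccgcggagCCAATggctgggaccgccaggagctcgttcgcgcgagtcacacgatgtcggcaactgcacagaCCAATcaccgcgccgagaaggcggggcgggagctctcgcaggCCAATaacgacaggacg
NSDHL: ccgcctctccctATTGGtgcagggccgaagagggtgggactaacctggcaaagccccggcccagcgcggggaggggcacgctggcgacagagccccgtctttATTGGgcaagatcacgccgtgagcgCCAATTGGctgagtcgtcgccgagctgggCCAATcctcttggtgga
SREBF2: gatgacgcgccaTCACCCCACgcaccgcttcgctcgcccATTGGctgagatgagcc
STARD4: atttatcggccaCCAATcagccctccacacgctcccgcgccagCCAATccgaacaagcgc
These lie at chr5:43313496-43313579 (minus strand), chr16:88663160-88663262 (minus strand), chr4:165327472-165327651 (plus strand), chrX:152830823-152830995 (plus strand), chr22:41832960-41833015 (plus strand) and chr5:111512649-111512708 (minus strand). A match describes the letters of the window and does not show that a factor binds there.

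The deposited values are TPM, transcript numbers scaled to gene length and to a fixed library total, so levels can be set side by side between genes, while the values keep no read depth per library. Differences below are on the log2(TPM + 1) scale, and a gene was called where limma's adjusted p did not exceed 0.05 and the difference was 0.15 or more either way. In bulk RNA, fewer cells of a type and less RNA per cell cannot be told apart. SKNAS libraries differed far more among themselves than SHEP libraries: the SD of the library median of log2(TPM + 1) was 0.52 and 0.48 in SKNAS MYC-OFF and MYC-ON against 0.049 and 0.059 in SHEP, and 3 MYC-OFF (CT56, CT64, CT72) and 4 MYC-ON (CT24, CT56, CT68, CT72) SKNAS libraries had a median below 3.3. Of the 31 genes, 27 had their lowest SKNAS MYC-OFF value and 24 their lowest SKNAS MYC-ON value in one of those libraries. The markers of neuroblastoma differed between the lines: VIM, a mesenchymal marker, averaged 3469 and 3439 TPM in SHEP and 1431 and 1603 TPM in SKNAS, HAND2 was found in both lines (15.7 to 161 TPM), and the adrenergic marker PHOX2A averaged 232 and 66.7 TPM in SKNAS and was near 0 in SHEP. Of the markers of other cells, EPCAM, PECAM1 and HBB averaged at most 1.16 TPM in every group, but PTPRC, a marker of blood cells, averaged 80.4 and 21.5 TPM in SKNAS MYC-OFF and MYC-ON and near 0 in SHEP. The part of PTPRC-bearing cells in the SKNAS results was not tested.

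Both arms of cholesterol synthesis were well expressed. The 18 genes of the mevalonate, squalene and sterol arms summed in SHEP to 927 ± 103 TPM without active N-MYC and to 1172 ± 149 TPM with it (mean and SD of 28 libraries each). In SKNAS the same sum was 1691 ± 107 TPM over 14 MYC-OFF libraries and 1991 ± 156 TPM over 13 MYC-ON libraries. In each line the MYC-ON mean stood above the MYC-OFF mean, and the lowest SKNAS MYC-OFF library, at 1439 TPM, was above every SHEP library. FDPS, which makes farnesyl pyrophosphate, led the cholesterol genes in all 4 groups, from 165 ± 15.3 TPM in SHEP MYC-OFF to 537 ± 88.6 TPM in SKNAS MYC-ON. FDFT1, the squalene synthase, came next in every group but SHEP MYC-ON, where the last-step reductase DHCR7 was above it. The 7 fatty acid genes summed to 879 and 1144 TPM in SHEP MYC-OFF and MYC-ON and to 969.7 and 828 TPM in SKNAS. In SHEP these were mostly SCD, FASN and ACLY, and in SKNAS FADS2 joined them.

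At the other end stood ABCA1, the cholesterol exporter, whose mean was under 1 TPM in all groups, so it was not tested. Its lowest, median and highest values were 0.244, 0.404 and 1.19 TPM in SHEP MYC-OFF and 0.111, 0.241 and 0.362 TPM in SHEP MYC-ON. In SKNAS the means were 0.0559 and 0.0160 TPM. It was lower in MYC-ON in 27 of 28 pairs of libraries from the same CT and series in SHEP and in 11 of 13 pairs in SKNAS, at levels where a value rests on few reads. The remaining 30 genes were tested in every comparison. IDI1, FDPS, CYP51A1, HSD17B7 and SCD have annotated pseudogenes, and MVK, SREBF1 and CYP51A1 overlap MMAB, RAI1 and AKAP9 on the opposite strand and FADS2 overlaps FEN1, so their values may hold reads of those genes. TM7SF2, a sterol C14 reductase, was the lowest of them, at 2.51 ± 1.05 TPM in SHEP MYC-ON.

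**Figure D1:**
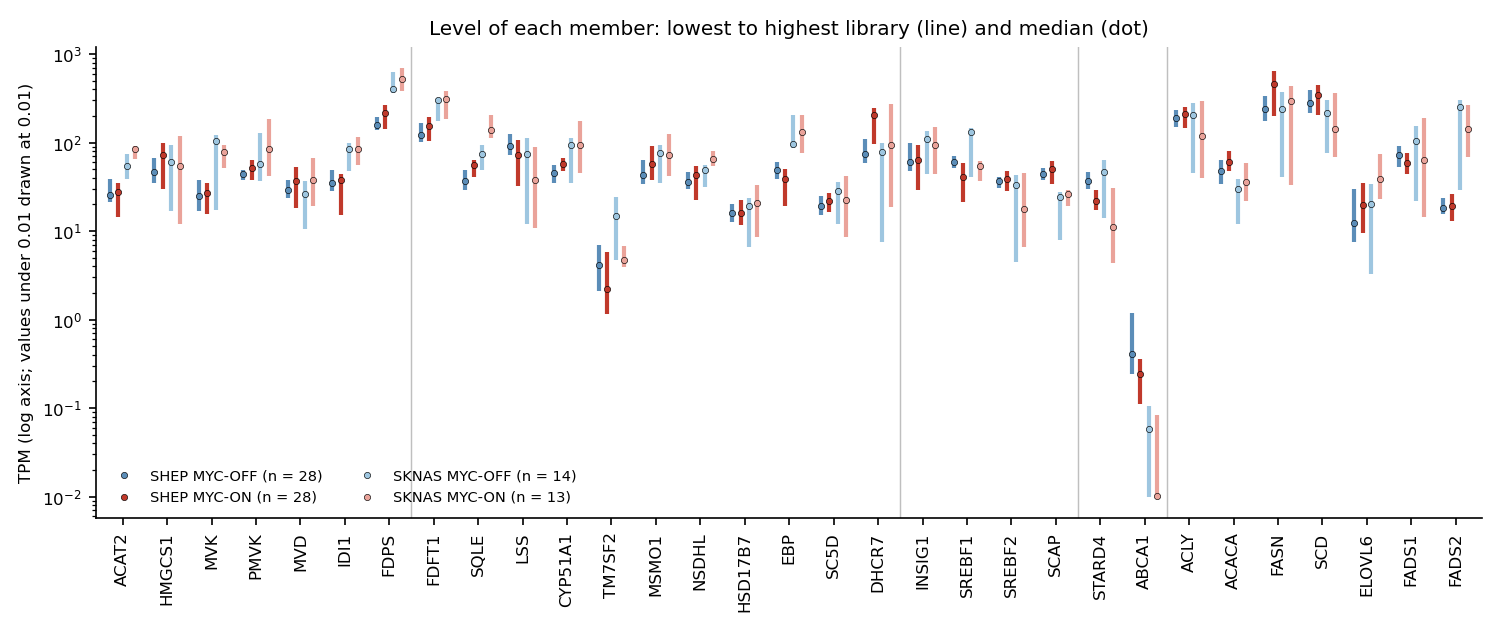
TPM of the 31 genes on a log axis in the 4 groups, with a line from the lowest to the highest library, a dot at the median and grey lines between role groups. The SKNAS ranges are long for most genes, ABCA1 lies under all others, and FADS2 is the tested gene whose medians lie furthest apart between the lines.

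In SHEP, N-MYC activation went with higher levels of most synthesis enzymes and lower levels of a small set. Of the 30 genes, 16 were higher in MYC-ON, where 33.0% of all 14362 genes tested were, and 6 were lower, where 38.9% were. At 1.5-fold (a difference of at least 0.66), 2 were higher (DHCR7 and FASN) against 9.39% of all genes and 2 were lower (SREBF1 and STARD4) against 11.4%. The median difference of the 30 genes was 0.18, beside -0.036 for all genes tested. With the series number as a replicate block, the calls of all 30 genes were unchanged.

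Higher genes lay in both arms of the cholesterol pathway. In the mevalonate arm 4 of 7 genes were higher. HMGCS1, which condenses acetyl-CoA units into the mevalonate precursor, had lowest, median and highest values of 35.3, 46.6 and 67.3 TPM in MYC-OFF and 30.2, 71.6 and 97.97 TPM in MYC-ON. The groups overlapped, with 16 of 28 MYC-ON libraries above the highest MYC-OFF library and 2, both late in series 2, below the lowest. The difference was 0.49 (SE 0.076, adjusted p = 1.61e-07), but it was 0.74 in series 1 alone and 0.24 in series 2 alone. FDPS differed by 0.37 (SE 0.036, adjusted p = 1.76e-12), and 24 of its 28 MYC-ON libraries were above the highest of MYC-OFF. PMVK and MVD, the kinase and the decarboxylase that follow on mevalonate kinase, differed by 0.22 and 0.24 (adjusted p = 4.07e-06 and 7.72e-04). For MVD series 2 alone gave 0.090 and no call. ACAT2, a thiolase that joins acetyl-CoA units, MVK, the mevalonate kinase, and IDI1, the isopentenyl isomerase, did not pass, at -0.025, 0.025 and -0.050.

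In the squalene and sterol arm 7 of 11 genes were higher and 3 lower. SQLE, the squalene epoxidase and a rate-limiting enzyme of the pathway, had values of 28.97, 36.7 and 49.4 TPM in MYC-OFF and 40.8, 56.5 and 63.9 TPM in MYC-ON. It was higher in 28 of 28 pairs, 26 of the 28 MYC-ON libraries were above the highest MYC-OFF library, and the difference was 0.56 (SE 0.041, adjusted p = 9.63e-17). DHCR7 (chr11:71428193-71452868, minus strand, GRCh38), which makes the last double-bond reduction to cholesterol, moved most of all 30 genes. Its values were 59.2, 74.7 and 110.1 TPM in MYC-OFF and 97.8, 205 and 245 TPM in MYC-ON, again with 26 of 28 MYC-ON libraries above every MYC-OFF library and 28 of 28 pairs higher. The difference was 1.32 (SE 0.061, adjusted p = 7.39e-24), and it was 1.42 in series 1 alone and 1.22 in series 2 alone. The other rises were smaller: 0.33 for the sterol C4 oxidase MSMO1, 0.32 for the lanosterol demethylase CYP51A1, 0.27 for FDFT1, 0.19 for the C4 decarboxylating dehydrogenase NSDHL and 0.17 for the desaturase SC5D. NSDHL, like SCAP below, did not pass in series 2 alone, SC5D did not pass in series 1 alone, and neither passed with the series means as replicates.

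The 3 sterol genes that were lower are LSS, EBP and TM7SF2. LSS, the cyclase that closes the sterol ring, had values of 73.4, 91.4 and 124 TPM in MYC-OFF and 32.6, 71.7 and 107 TPM in MYC-ON, a difference of -0.42 (SE 0.065, adjusted p = 1.58e-07). The groups overlapped, with 15 of 28 MYC-ON libraries, all from CT48 or later, below the lowest MYC-OFF library and the rest inside the MYC-OFF range. EBP, the sterol isomerase, differed by -0.42 (SE 0.060, adjusted p = 3.11e-08) and was lower in 28 of 28 pairs, with 13 of the 28 MYC-ON libraries below the whole MYC-OFF range. TM7SF2 went from 4.32 ± 1.29 TPM to 2.51 ± 1.05 TPM, a difference of -0.62 (SE 0.091, adjusted p = 5.93e-08). Its gene overlaps VPS51 on the same strand. HSD17B7, a sterol ketone reductase, did not pass, at 0.051.

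Among the regulators the genes did not move together. SREBF1 (chr17:17810399-17837002, minus strand, GRCh38) had values of 52.1, 59.9 and 70.8 TPM in MYC-OFF and 21.2, 41.1 and 58.2 TPM in MYC-ON, a difference of -0.66 (SE 0.061, adjusted p = 1.71e-13). It was lower in 27 of 28 pairs, and 25 of 28 MYC-ON libraries were below the lowest MYC-OFF library. SREBF2, which encodes the SREBP best known for the cholesterol genes, differed by 0.069 and INSIG1 by -0.088, neither past the threshold, while SCAP was higher by 0.19 (SE 0.046, adjusted p = 2.39e-04). STARD4 (chr5:111496033-111512590, minus strand, GRCh38), a soluble carrier of sterols between membranes, had values of 30.1, 36.7 and 46.4 TPM in MYC-OFF and 17.1, 22.03 and 29.5 TPM in MYC-ON. The groups did not overlap, which held for 1 of the 30 genes against 6.36% of all genes tested, and in the other direction for 0 of 30 against 6.11%. The difference was -0.72 (SE 0.041, adjusted p = 1.18e-20), and it was -0.69 in series 1 alone and -0.74 in series 2 alone.

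In fatty acid synthesis 4 of 7 genes were higher and 1 lower. FASN (chr17:82078338-82098294, minus strand, GRCh38), the fatty acid synthase, had values of 175, 243 and 337 TPM in MYC-OFF and 199, 461 and 651 TPM in MYC-ON, with 21 of 28 MYC-ON libraries above the highest of MYC-OFF and a difference of 0.80 (SE 0.062, adjusted p = 5.89e-16). ELOVL6, which extends palmitate, was higher by 0.51 (SE 0.10, adjusted p = 2.27e-05). ACACA, the acetyl-CoA carboxylase that commits carbon to this route, was higher by 0.37 and SCD, the desaturase that makes oleate, by 0.22 (adjusted p = 1.13e-07 and 1.33e-05). FADS1, a desaturase of polyunsaturated fatty acids, was lower, with a difference of -0.26 (adjusted p = 8.31e-08). ACLY, at 0.081, had an adjusted p of 0.0144 but lay under the 0.15 threshold, and FADS2 differed by 0.011. FADS1 and FADS2 overlap each other on opposite strands, and no source used here says whether reads were assigned by strand.

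**Figure D2:**
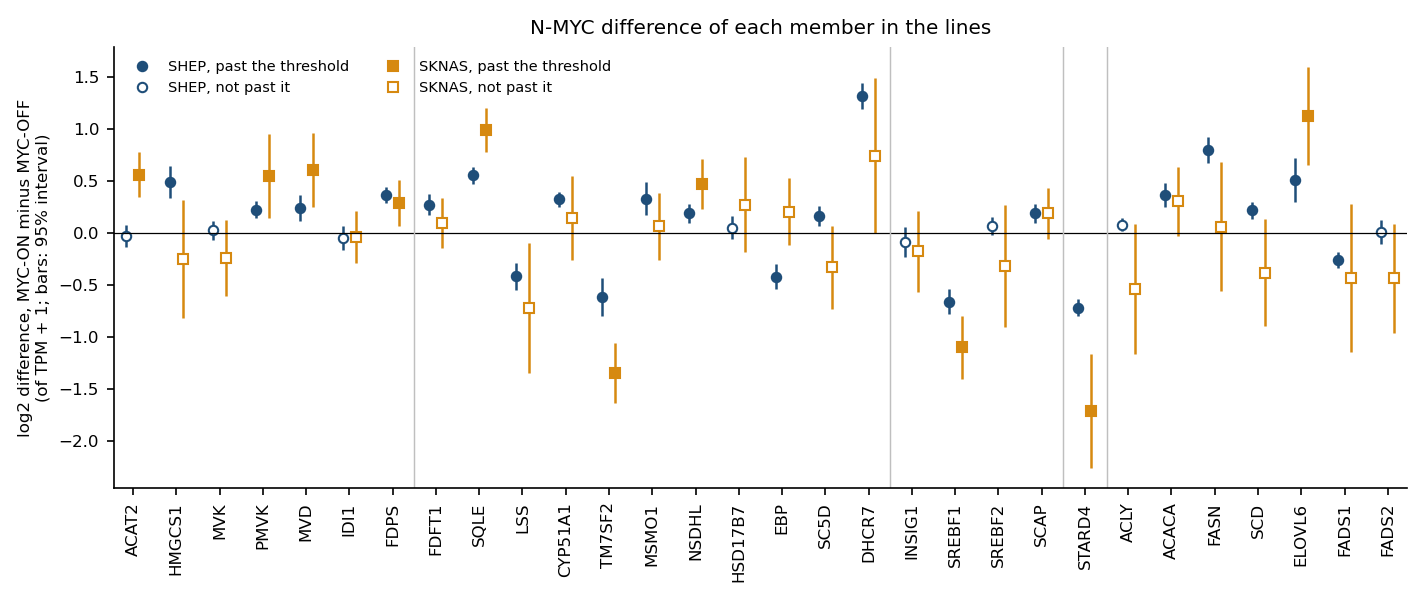
Difference in log2(TPM + 1), MYC-ON minus MYC-OFF, of the 30 tested genes in SHEP (circles) and SKNAS (squares), with 95% intervals, filled where the gene passed the threshold. STARD4, SREBF1 and TM7SF2 lie under 0 in both lines, and the SKNAS intervals are several times wider.

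In SKNAS fewer of the genes passed: 7 were higher, where 13.7% of all 13886 genes tested were, and 3 were lower, where 34.4% were. At 1.5-fold 2 were higher (SQLE and ELOVL6) against 6.97% of all genes, and 3 were lower (STARD4, TM7SF2 and SREBF1) against 23.8%. The median difference of the 30 genes was 0.064, beside -0.29 for all genes, so that the centre of the SKNAS scale itself lay under 0. With the libraries rescaled by the median of ratios, 15 genes were higher and 3 lower, with the library median as a covariate 17 and 3, and without the 7 libraries of low median 4 and 4. The 15 and 17 stand against 27.9% and 28.3% of all genes under the same scalings. The count of higher genes in SKNAS therefore depends on the scaling, and the genes below are those whose values could be followed through it.

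SQLE was the clearest. Its lowest, median and highest values were 48.7, 74.8 and 94.3 TPM in SKNAS MYC-OFF and 112, 137 and 203 TPM in MYC-ON. The groups did not overlap, which held upward for this gene alone among the 30 against 2.32% of all genes, and downward for 0 of 30 against 2.09%. The difference was 0.99 (SE 0.10, adjusted p = 1.33e-06), and it was 1.36 after rescaling, 1.08 with the covariate and 1.02 without the low libraries. ELOVL6 differed by 1.12 (SE 0.22, adjusted p = 7.50e-04), ACAT2 by 0.56 (SE 0.10, adjusted p = 4.00e-04) and NSDHL by 0.47 (SE 0.11, adjusted p = 0.00304). NSDHL was higher in 13 of 13 pairs, and ELOVL6 and ACAT2 in 12 of 13. All 4 genes stayed past the threshold under both scalings and without the low libraries. ACAT2 overlaps TCP1 and SOD2, both on the opposite strand.

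PMVK, MVD and FDPS, at 0.55, 0.60 and 0.29 (adjusted p = 0.0272, 0.00827 and 0.0313), passed with all libraries. Without the 7 libraries of low median none of the 3 passed, at 0.45, 0.38 and 0.29. With the library median as a covariate PMVK and FDPS did not pass either, at 0.14 and 0.11. PMVK peaked in them, at 129 TPM in MYC-OFF (CT64) and 183 TPM in MYC-ON (CT68), against medians of 58.1 and 85.8 TPM.

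The 3 lower genes are those that were also lower in SHEP. STARD4 had values of 13.9, 46.8 and 63.5 TPM in SKNAS MYC-OFF and 4.34, 11.04 and 30.9 TPM in MYC-ON. The groups overlapped: the 3 lowest MYC-OFF libraries were the 3 with a low median, and 10 of 13 MYC-ON libraries were below them all. At CT52 MYC-ON stood at 30.9 and MYC-OFF at 27.8 TPM. Neither CT52 library had a median below 3.3, but their medians were unlike: 4.25 in MYC-ON, the highest of its group, and 3.62 in MYC-OFF. The STARD4 difference over all SKNAS libraries was -1.71 (SE 0.26, adjusted p = 7.21e-05). SREBF1 had values of 41.1, 131 and 146 TPM in MYC-OFF and 36.9, 54.8 and 62.2 TPM in MYC-ON and was lower in 13 of 13 pairs, with a difference of -1.10 (SE 0.14, adjusted p = 1.62e-05). The overlap rested on the CT56 library of MYC-OFF, the lowest of its group and one of those with a low median. TM7SF2 went from 15.3 ± 4.60 TPM to 4.95 ± 0.975 TPM, lower in 13 of 13 pairs, with a difference of -1.35 (SE 0.13, adjusted p = 1.37e-06). With rescaling, with the covariate and without the low libraries, these 3 stayed lower and past the threshold, with differences of -1.37, -1.07 and -1.77 for STARD4, -0.73, -0.89 and -1.23 for SREBF1, and -1.01, -1.26 and -1.32 for TM7SF2.

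For the other 20 genes the direction in SKNAS often depended on the scaling. DHCR7, for example, had values of 7.62, 77.99 and 99.6 TPM in MYC-OFF and 18.7, 93.4 and 272 TPM in MYC-ON, and its difference of 0.74 had a 95% interval of -0.00061 to 1.49. It passed after rescaling (1.12) and with the covariate (1.63). CYP51A1, MSMO1, HSD17B7 and ACACA also passed, all higher, under both scalings. HMGCS1, with 16.8, 60.01 and 94.6 TPM in MYC-OFF and 12.1, 55.00 and 119 TPM in MYC-ON, went from -0.25 to 0.12 after rescaling and 0.40 with the covariate. FASN (0.062), ACLY (-0.54), SCD (-0.38), FADS1 (-0.43), FADS2 (-0.44), LSS (-0.72), SC5D (-0.33), INSIG1 (-0.18) and SREBF2 (-0.31) did not pass on the deposited scale, and 95% intervals such as -0.56 to 0.69 for FASN and -1.16 to 0.086 for ACLY were wide. FASN passed with the covariate, at 0.70. HMGCS1 (0.40), FADS1 (0.43), SREBF2 (0.37), INSIG1 (0.24), SCD (0.22) and ACLY (0.21) changed sign with it and were called higher. FDFT1, EBP, SCAP, MVK and IDI1 lay between -0.24 and 0.20. After rescaling FDFT1 (0.47), SCAP (0.55) and IDI1 (0.33) were called higher, and without the low libraries MVK (-0.34) was called lower.

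**Figure D3:**
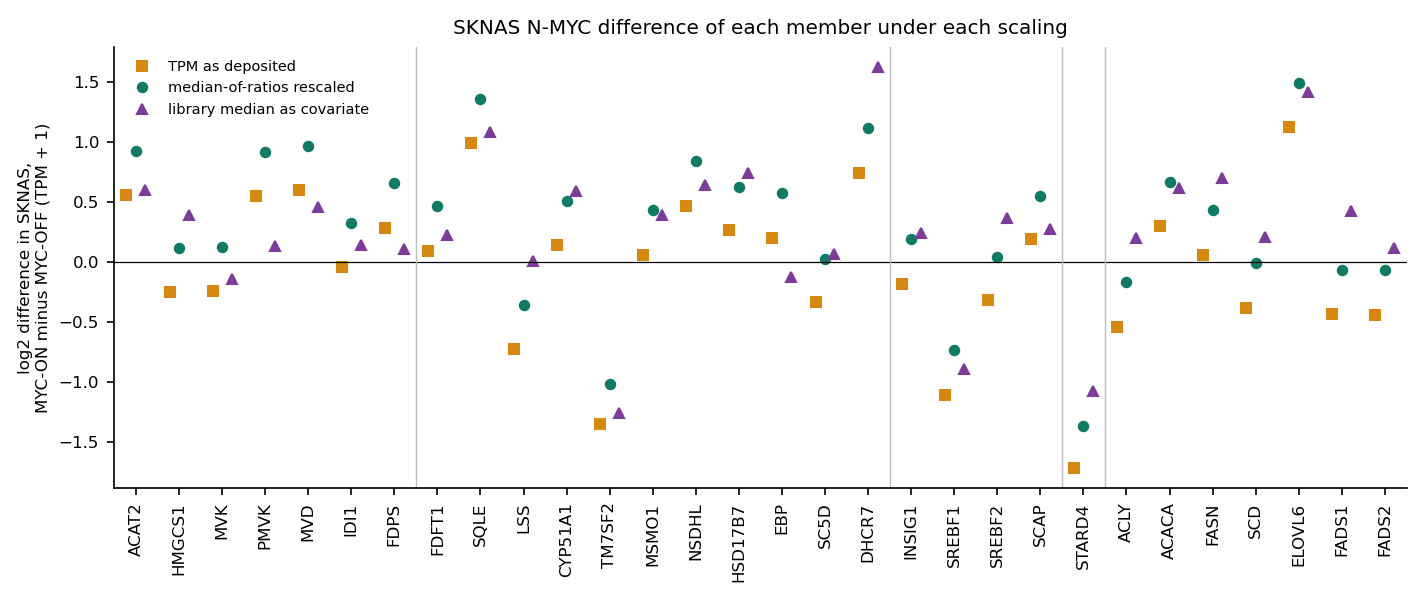
SKNAS difference of each of the 30 genes, MYC-ON minus MYC-OFF in log2(TPM + 1), with TPM as deposited (squares), after median-of-ratios rescaling (circles) and with the library median as covariate (triangles). STARD4, SREBF1 and TM7SF2 are under 0 and SQLE, ELOVL6 and ACAT2 above 0 under all 3, whereas genes such as HMGCS1, ACLY and FADS1 change side.

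Setting the lines together, 6 genes were higher in MYC-ON in both (PMVK, MVD, FDPS, SQLE, NSDHL and ELOVL6), 3 were lower in both (TM7SF2, SREBF1 and STARD4), and 0 were called in opposite directions. Of the 12306 genes tested in both lines, 11.5% were higher in both, 24.1% lower in both and 2.80% called in opposite directions. Of the 6, PMVK, MVD and FDPS lost their SKNAS call in alternatives given above. MVD and NSDHL lost their SHEP call in series 2 alone, and NSDHL also with the series means as replicates. The 6 are 6 of the 16 genes higher in SHEP and of the 7 higher in SKNAS, and the 3 are 3 of the 6 lower in SHEP and of the 3 lower in SKNAS. The difference of the effect between lines, SKNAS minus SHEP, was tested over all 83 libraries. It was called above 0 for 7 of 30 genes, where 13.4% of all 14870 genes were, and below 0 for 10, where 38.1% were. SKNAS libraries spread more than SHEP libraries, and with library weights estimated by line, chosen after the data were seen, 3 and 6 genes passed. The median of all genes was -0.22 here, and the counts were 11 and 7 after rescaling and 10 and 3 with the library median as a covariate. STARD4 differed by -0.995 (SE 0.17, adjusted p = 1.93e-06) between lines, and with weights its adjusted p was 4.21e-05. SQLE differed by 0.44 (SE 0.079, adjusted p = 7.22e-06) (with weights 0.0148), EBP by 0.62 (SE 0.13, adjusted p = 5.24e-05) (with weights 0.0218) and ACAT2 by 0.59 (SE 0.10, adjusted p = 8.17e-07) (with weights 0.00921). STARD4 thus dropped further, and SQLE rose further, in SKNAS than in SHEP. The other 5 that passed with weights were HMGCS1, SC5D, ACLY, FASN and SCD, all with the SKNAS effect below that of SHEP. With the library median as a covariate HMGCS1, SC5D, FASN and SCD lost their calls and ACLY crossed 0.

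The lines also differed in how high the genes stood without active N-MYC. In MYC-OFF 17 of 30 genes were higher in SKNAS than in SHEP, where 32.1% of 14926 genes tested were, and 8 were lower, where 46.4% were. FADS2, a desaturase of polyunsaturated fatty acids, had values of 15.5, 18.1 and 23.99 TPM in SHEP and 29.1, 252 and 306 TPM in SKNAS, with no overlap, and a difference of 3.28 (SE 0.17, adjusted p = 1.55e-17). MVK was higher by 1.83 (SE 0.14, adjusted p = 2.66e-13), TM7SF2 by 1.58 (SE 0.14, adjusted p = 4.51e-12) and FDPS by 1.39 (SE 0.067, adjusted p = 2.18e-18). EBP, IDI1, FDFT1 and ACAT2 were higher by 1.18, 1.13, 1.13 and 0.98. These are 4 further steps of the cholesterol route, so that FDFT1, for instance, was at 127 ± 15.4 TPM in SHEP and 281 ± 46.5 TPM in SKNAS. SREBF1 was higher in SKNAS by 0.89 (SE 0.093, adjusted p = 3.68e-10). SCAP was lower there, with a difference of -0.98 (SE 0.083, adjusted p = 2.79e-12), and the lower genes also held ACACA at -0.77, LSS at -0.71, SCD at -0.62 and SREBF2 at -0.57. SREBF2 was not called with the library median as a covariate, without the low libraries or without SHEP series 2, at -0.054, -0.12 and -0.51. In MYC-ON the counts were 16 higher against 26.0% of 14620 genes and 10 lower against 58.3%. All genes centred on -0.18 in MYC-OFF and -0.49 in MYC-ON in this comparison, and with the library median as a covariate the counts were 22 and 5 in MYC-OFF and 20 and 4 in MYC-ON. Line and experiment cannot be told apart in this comparison, since SKNAS had 1 series.

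Within SHEP, the change over culture time went mostly one way. In SHEP MYC-OFF, 19 of 30 genes fell between CT24 and CT76, where 5.15% of all 14264 genes tested fell, and 0 rose, where 2.96% did. The median slope of the 30 genes was -0.19 per 24 h on the log2 scale, beside -0.018 for all genes. The series agreed in direction and differed in size: 29 of 30 slopes were negative in series 1 and 27 of 30 in series 2, where 61.2% and 51.0% of all genes were, and 19 genes fell in series 1 alone and 6 in series 2 alone, against 6.60% and 0.827% of all genes. Of the 31 genes, 21 had their highest MYC-OFF library at CT24 or CT28. The fall ran through 5 of 7 mevalonate genes, 9 of 11 squalene and sterol genes and 3 of 7 fatty acid genes, with INSIG1 and STARD4.

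Among the early steps MVK had a slope of -0.31 (SE 0.041, adjusted p = 4.50e-06) per 24 h, the steepest of the 30 genes, HMGCS1 of -0.30 (SE 0.037, adjusted p = 2.42e-06), IDI1 of -0.27 (SE 0.034, adjusted p = 2.80e-06) and ACAT2 of -0.26 (SE 0.034, adjusted p = 4.93e-06). The mean of the 5 libraries from CT24 to CT40 and that of the 5 from CT60 on give the scale of this: HMGCS1 went from 56.9 ± 6.57 to 38.03 ± 2.22 TPM (SD, n = 5 each) in series 1 and from 51.4 ± 5.88 to 40.5 ± 2.54 TPM in series 2. IDI1 went from 44.8 ± 3.14 to 30.3 ± 3.11 TPM in series 1 and from 38.2 ± 3.14 to 32.3 ± 0.827 TPM in series 2. MVD fell by 0.18 per 24 h over both series, but from 36.5 ± 1.13 to 26.9 ± 3.07 TPM in series 1 and only from 30.8 ± 2.93 to 29.2 ± 3.20 TPM in series 2. The mevalonate genes not called were PMVK, at 0.016, and FDPS, whose slope of -0.11 had an adjusted p of 6.83e-04 and lay under the size threshold.

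In the squalene and sterol arm MSMO1 had a slope of -0.26 (SE 0.028, adjusted p = 2.63e-07) per 24 h and SQLE of -0.26 (SE 0.029, adjusted p = 7.46e-07). SQLE went from 45.6 ± 3.43 to 32.7 ± 3.27 TPM in series 1 and from 42.5 ± 2.16 to 34.00 ± 0.978 TPM in series 2. DHCR7, CYP51A1, LSS, FDFT1, NSDHL and SC5D had slopes between -0.24 and -0.17 per 24 h, and that of TM7SF2 was -0.25 (SE 0.081, adjusted p = 0.0318). HSD17B7 and EBP did not pass, at -0.066 and -0.082. In fatty acid synthesis SCD, FASN and ACLY fell, with slopes of -0.27, -0.26 and -0.20 per 24 h, and SCD went from 363 ± 26.9 to 237 ± 20.5 TPM in series 1 and 298 ± 9.69 to 255 ± 17.8 TPM in series 2. ELOVL6, at -0.25 with an adjusted p of 0.119, ACACA, FADS1 and FADS2 were not called, and neither were SREBF1 (-0.033) and SREBF2 (-0.058). SCAP had a slope of 0.11 with an adjusted p of 0.00375, under the size threshold, and was the one gene with a positive slope in both series. INSIG1, itself a target of SREBP factors, had a slope of -0.25 (SE 0.046, adjusted p = 3.36e-04), from 82.7 ± 10.05 to 53.6 ± 4.91 TPM in series 1 and from 60.4 ± 7.42 to 53.9 ± 4.94 TPM in series 2.

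A promoter feature that the list did not use was counted against the fall. Of the 15 falling genes with a RefSeq promoter entry, 13 held a CCAAT in either orientation (IDI1 and CYP51A1 did not), as in the HMGCS1, MVD, MSMO1, NSDHL and STARD4 stretches above. Among the other 12 genes with an entry, 4 did (EBP, FDPS, HSD17B7 and SREBF2), as did 33.0% of all promoters. Those 12 were not all without a fall: they include ABCA1, which was not tested, and genes with negative slopes that were not called, such as FDPS and ELOVL6. Split by the N-MYC difference in SHEP instead, 8 of 13 higher genes and 4 of 6 lower genes with an entry held a CCAAT. These counts describe the letters of the windows and were not tested.

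**Figure D4:**
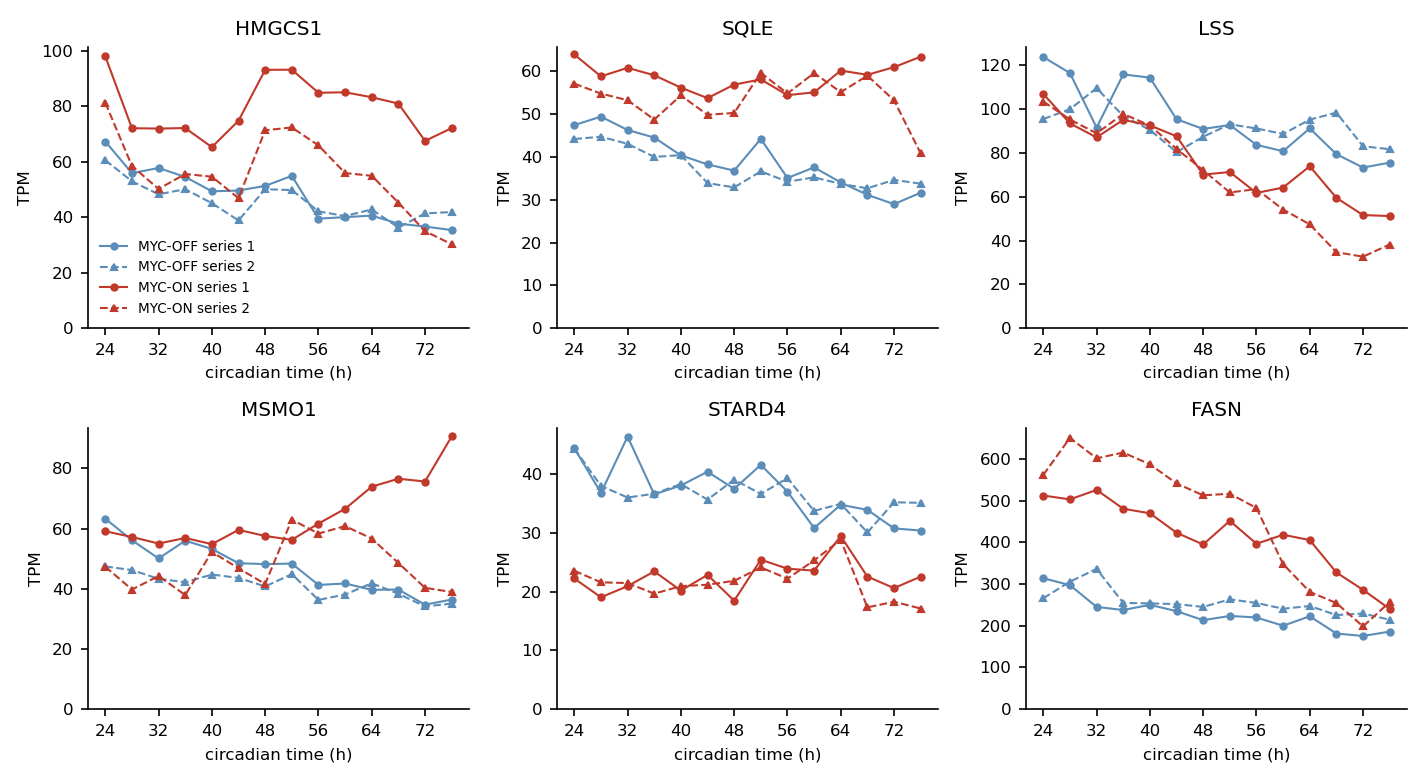
TPM against circadian time in hours for HMGCS1, SQLE, LSS, MSMO1, STARD4 and FASN in SHEP, with MYC-OFF in blue, MYC-ON in red, series 1 as solid lines with circles and series 2 as dashed lines with triangles. MYC-OFF levels decline in all 6 panels, STARD4 MYC-ON lies below MYC-OFF throughout, and MSMO1 in MYC-ON ends at 90.6 TPM in series 1 and 38.9 TPM in series 2.

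In SHEP MYC-ON, where far more genes moved with time, 18 of 30 genes fell against 30.6% of all 14261 genes tested and 1 rose against 17.1%. The steepest were LSS, -0.62 (SE 0.052, adjusted p = 1.01e-10) per 24 h, FASN, -0.58 (SE 0.064, adjusted p = 1.43e-08), SREBF1, -0.50 (SE 0.058, adjusted p = 2.90e-08), and EBP, -0.42 (SE 0.040, adjusted p = 1.36e-09). LSS went from 95.1 ± 7.31 to 60.1 ± 9.49 TPM in series 1 and from 95.7 ± 5.50 to 41.4 ± 9.10 TPM in series 2, and FASN from 499 ± 22.97 to 336 ± 76.4 TPM and from 604 ± 33.1 to 268 ± 54.1 TPM. SREBF1, flat in MYC-OFF, went from 47.96 ± 6.08 to 30.2 ± 4.37 TPM in series 1 and from 48.7 ± 8.19 to 25.8 ± 3.76 TPM in series 2. INSIG1, SCD, NSDHL, DHCR7, MVK, ACLY, ELOVL6, ACAT2, ACACA, IDI1, PMVK, HMGCS1, SCAP and FADS1 fell by 0.39 to 0.16 per 24 h. MSMO1 rose by 0.16 (SE 0.058, adjusted p = 0.0161), with a slope of 0.27 in series 1 and 0.058 in series 2, and was not called without the replicate block. Slopes were negative for 21 of 30 genes in series 1 and for 28 in series 2, against 60.8% and 55.9% of all genes. Series 1 alone gave 13 falling and 2 rising genes, and series 2 alone 19 and 1, while with the library median as a covariate the counts were 13 and 3.

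Whether the slope differed between MYC-ON and MYC-OFF was tested directly in SHEP. It was called above 0 for 5 of 30 genes, where 14.7% of all 14362 genes were, and below 0 for 8, where 24.7% were. MSMO1 (0.43), SC5D (0.27), SQLE (0.24), FDFT1 (0.18) and STARD4 (0.17) held up better in MYC-ON, and SREBF1 (-0.47), LSS (-0.42), EBP (-0.33), FASN (-0.33), SCAP (-0.27), PMVK (-0.21), NSDHL (-0.18) and ACACA (-0.18) went down faster there. The experiments disagreed on the balance: series 1 alone gave 14 genes above and 2 below 0, series 2 alone 1 and 13. In series 2 alone MSMO1, SQLE, FDFT1 and STARD4 lost their calls. In series 1 alone LSS, FASN, SCAP, PMVK, NSDHL and ACACA lost theirs. Only SC5D, SREBF1 and EBP passed in each series alone. After rescaling the counts were 7 and 6, and with the library median as a covariate 8 and 7. The sum over the 18 cholesterol genes also differed between the series. From CT24 to CT76 it went from 1175 to 793 TPM in MYC-OFF and from 1361 to 1225 TPM in MYC-ON in series 1, and from 956 to 833 TPM in MYC-OFF and from 1214.5 to 829.7 TPM in MYC-ON in series 2. At CT76 of series 2 the conditions were thus close, while the means from CT60 on were 905 TPM in MYC-ON and 841 TPM in MYC-OFF, after 1199.8 and 951 TPM from CT24 to CT40.

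**Figure D5:**
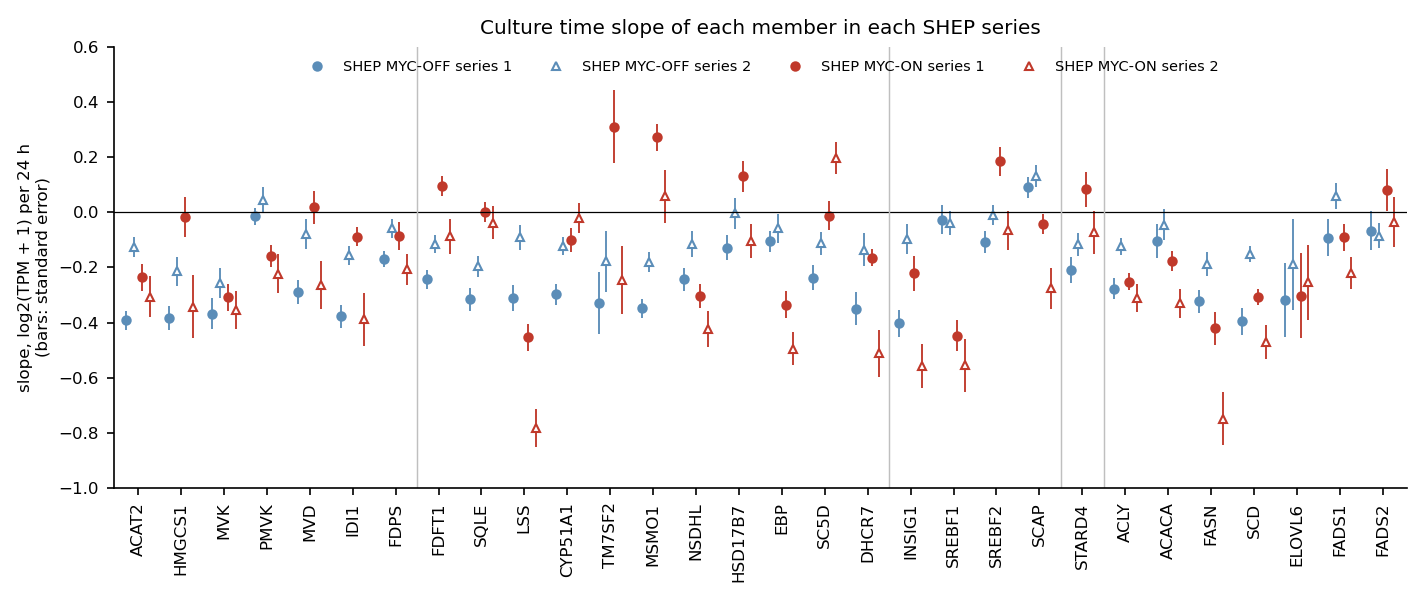
Slope of log2(TPM + 1) per 24 h of each of the 30 genes in SHEP, with standard errors, for MYC-OFF (blue) and MYC-ON (red) in series 1 (filled circles) and series 2 (open triangles). MYC-OFF slopes are negative for 29 and 27 genes, and MYC-ON slopes of series 2 lie under those of series 1 for most genes.

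In SKNAS no slope passed. In MYC-OFF 0 of 30 genes rose and 0 fell by limma, as did 0 and 0 percent of all 14119 genes, while 12 of the 30 and 36.4% of all genes had an unadjusted p under 0.05. In MYC-ON 0 of 30 passed against 0.0299% rising and 0.0823% falling of 13365 genes, with 2 of the 30 and 6.08% of all genes at an unadjusted p under 0.05. The median slopes of the 30 genes, -0.33 and -0.23 per 24 h, were near those of all genes, -0.31 and -0.20, and turned to 0.024 and 0.0083 after rescaling. For the difference of slopes 0 of 30 passed against 0.0288% above and 0.0504% below 0 of all genes, with 0 of the 30 at an unadjusted p under 0.05. Slopes of the SHEP size occurred without passing the adjusted threshold, such as that of MVK in MYC-ON, -0.32 per 24 h.

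No 24 h rhythm around the trend was called, by a test that called very few genes of any kind. The study detected oscillating genes with another method, ECHO, which was not run here. The counts below therefore do not show that rhythm was absent. By limma's F test of the 24 h cosine and sine terms 0 of 30 genes passed in each of the 4 groups, beside 0.0631% of all genes in the MYC-OFF and 0.0140% in the MYC-ON libraries of SHEP and 0% in both SKNAS groups. At an unadjusted p under 0.05 were 3 of 30 genes in SHEP MYC-OFF (SREBF1, NSDHL and TM7SF2), 3 in SHEP MYC-ON (ACAT2, FADS2 and FDPS), and 0 and 0 in SKNAS, against 9.81%, 8.74%, 0.446% and 0.344% of all genes. The lowest adjusted p was that of NSDHL in SHEP MYC-OFF, 0.109.

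The neighbouring pathways were read from lists of other genes, in SKNAS on the deposited scale, whose centre lay at -0.29. Their counts stand against the shares of all genes given above, 33.0% higher and 38.9% lower in SHEP and 13.7% and 34.4% in SKNAS, and were not tested as lists. Of 15 tested genes of sterol uptake, storage and sensing, 3 were higher and 9 lower in SHEP MYC-ON, and 0 and 7 in SKNAS, where 16 and 6 of the 30 synthesis genes were in SHEP and 7 and 3 in SKNAS. NPC2, which moves cholesterol out of lysosomes, differed by -1.51 (SE 0.042, adjusted p = 2.80e-32) in SHEP and -1.05 (SE 0.10, adjusted p = 6.50e-07) in SKNAS. INSIG2, the second INSIG, differed by -0.82 (SE 0.061, adjusted p = 1.46e-16) and -0.73 (SE 0.17, adjusted p = 0.00237), and SOAT1, which esterifies cholesterol for storage, by -0.46 and -1.05. Of the LXR genes 5 of 6 tested in SHEP were lower and 0 higher, and 4 of 7 and 0 in SKNAS, among them LPCAT3 (-0.68 and -1.06), a phospholipid acyltransferase. APOE, a lipoprotein part that LXR induces, was lower in SKNAS, at -1.17, and under the filter in SHEP. ABCA1, an LXR target among the 31 genes, stood at the low levels given above. Of 13 genes of the isoprenoid branch 5 were higher and 4 lower in SHEP and 4 and 0 in SKNAS, with PDSS1, of ubiquinone side chain synthesis, at 0.95 (SE 0.060, adjusted p = 7.32e-19) and 0.75 (SE 0.10, adjusted p = 2.89e-05).

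Of the other fatty acid genes 9 of 26 tested were higher and 12 lower in SHEP, and 5 and 8 of 23 in SKNAS. The mitochondrial fatty acid synthesis genes MCAT and OXSM differed by 1.45 and 0.92 in SHEP and 1.21 and 0.68 in SKNAS, all called. ACSL3, an acyl-CoA synthetase, was lower in both lines, at -0.78 and -1.34, as was ACACB, the carboxylase at the mitochondrial surface, at -0.67 and -1.01. Of 15 fatty acid oxidation genes 6 were higher and 5 lower in SHEP and 0 and 8 in SKNAS, with PPARA, a receptor that drives oxidation genes, at -0.87 and -0.96 and the dehydrogenase ACADM at -0.41 and -0.98. Declines over time in these lists were as follows. In SHEP MYC-OFF 3 of 15 other sterol genes, 1 of 13 isoprenoid genes, 2 of 26 other fatty acid genes, 0 of 6 LXR genes and 0 of 15 oxidation genes fell, beside the 19 of 30 above and 5.15% of all genes. These shares were not tested against each other.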

How the data were processed

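The authors deposited 1 table of TPM (length-scaled transcript levels) for all libraries. The submitters' processing notes name Salmon 1.3.0, and the study's methods name Gencode transcripts of GRCh38 and Tximport for summing to genes. TPM keep no read depth per library. In the present work log2(TPM + 1) was tested with limma 3.58.1 in R 4.3.3, with circadian time as a factor for N-MYC effects and as a linear term, with series, for culture time. Genes with a mean TPM under 1 in the fitted libraries were left out. Calls needed a p of 0.05 or less after Benjamini-Hochberg adjustment over all genes tested and a difference of 0.15 (0.66 for 1.5-fold). The fits were tested on simulated data, where the fit between lines with equal weights made excess false calls, so library weights by line were added after the data were seen. Series numbers paired the libraries (deviations of series 1 in MYC-OFF and MYC-ON correlated at 0.49 over 14362 genes). Members and lists were chosen with earlier results of these data known. All 31 members are named; genes of other lists are named where called at 1.5-fold alike in both lines or largest of their list in a line, except 1 gene that is not reported here. Gene positions are from Gencode and promoters from RefSeq, both GRCh38.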

Additional observations from a re-analysis of the deposited data

Results flagged for a closer look

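The effect of N-MYC activation differed between the lines, by the limma test of the difference itself over 83 libraries, for 17 of the 30 genes, 7 above and 10 below 0, where 13.4% and 38.1% of all genes were. The values below are SKNAS minus SHEP on the log2(TPM + 1) scale. The SKNAS effect was the lower one for STARD4 (-0.995), HMGCS1 (-0.74), FASN (-0.74), TM7SF2 (-0.73), ACLY (-0.62), SCD (-0.60), DHCR7 (-0.58), SC5D (-0.50), FADS2 (-0.45) and SREBF1 (-0.44). It was the higher one for NSDHL (0.28), PMVK (0.33), MVD (0.36), SQLE (0.44), ACAT2 (0.59), ELOVL6 (0.61) and EBP (0.62). With library weights by line, STARD4, HMGCS1, FASN, ACLY, SCD, SC5D, SQLE, ACAT2 and EBP passed and the other 8 did not. SKNAS had 1 series, so line and experiment cannot be told apart.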

How the results depend on the processing

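In SHEP, the N-MYC effect kept its direction and call in all 30 genes at a pseudocount of 0.1 and without a filter, and with the replicate block, which left 16 genes higher and 6 lower. Reversals were in genes not called: with the library median as covariate MVK was -0.022, HSD17B7 -0.0048 and FADS2 -0.070, after rescaling ACAT2 was 0.019, and leaving out 1 series gave ranges of -0.17 to 0.072 for IDI1, -0.043 to 0.15 for HSD17B7, -0.082 to 0.031 for ACAT2, -0.22 to 0.042 for INSIG1 and -0.039 to 0.060 for FADS2. In SKNAS, the genes higher numbered 15 after rescaling, 17 with the covariate and 4 without the libraries of low median. The 17 in SKNAS held HMGCS1, FADS1, SREBF2, INSIG1, SCD and ACLY, which changed sign with the covariate. The genes that changed sign there were, after rescaling, HMGCS1 (0.12), MVK (0.13), IDI1 (0.33), SC5D (0.024), INSIG1 (0.19) and SREBF2 (0.048). With the covariate they were HMGCS1 (0.40), IDI1 (0.14), LSS (0.013), EBP (-0.12), SC5D (0.068), INSIG1 (0.24), SREBF2 (0.37), ACLY (0.21), SCD (0.22), FADS1 (0.43) and FADS2 (0.12), and without the low libraries IDI1 (0.0010). For the difference between lines, 11 genes were above 0 after rescaling, 3 with weights, 3 without the low libraries and 3 to 5 without 1 SHEP series, and 3 were below 0 with the covariate, 6 with weights and 3 to 5 without 1 SHEP series. With the covariate PMVK became -0.018, DHCR7 0.15 and ACLY 0.0031. Genes lower in SKNAS in MYC-OFF numbered 5 with the covariate, 5 without the low libraries and 4 to 5 without 1 SHEP series, DHCR7 becoming 0.071 and FASN 0.11 with the covariate and FASN 0.070 without the low libraries, and those lower in MYC-ON numbered 4 with the covariate. For culture time in SHEP, 6 to 19 genes fell in MYC-OFF in 1 series alone, and 1 to 2 rose in MYC-ON, where 3 did with the covariate and 0 without the replicate block (MSMO1 and HMGCS1 lost their calls). The slope difference was above 0 for 8 genes with the covariate, and in 1 series alone for 1 to 14 above and 2 to 13 below. The cause was not tested in any of these. TPM keep no depth per library, so no counting error can be given for low values such as those of ABCA1.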
